A study of Mus musculus with 6 samples.

Results

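The 45 genes described here act in G2 and mitosis, the stretch of the cell cycle between the end of DNA synthesis and the division of the cell. They were chosen by name: cyclins, mitotic kinases, checkpoint proteins, kinetochore and spindle genes, chromosome-structure genes and genes of cytokinesis and mitotic exit. Each of the 45 was found by its RefSeq accession among the 23146 entries of the deposited tables, each at 1 entry. The RNA came from EML, a line of mouse blood progenitors kept in IMDM with 20% FBS and stem cell factor at 200 ng/ml. Background on the line is that it was made immortal with a dominant-negative retinoic acid receptor and that it is 1 line, not primary marrow. The labels give its strain as BDF1, its tissue as bone marrow and its cell type as basophil.

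The libraries formed 4 groups. The knockdown arm held a wild-type knockdown control (n = 2) and a KAI1 knockdown (n = 2), and the overexpression arm held 1 library of its own wild-type control and 1 library with KAI1 overexpressed. KAI1 is a tetraspanin membrane protein encoded by Cd82. The sources used here do not say by which vector or reagent either was made. Nor do they name separate cultures for the replicates, so a p-value here reflects the spread between these libraries alone, and that spread may be technical. Below, control 1 and control 2 are the libraries of the knockdown control, and knockdown 1 and knockdown 2 those of the KAI1 knockdown.

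A dividing cell enters mitosis when Cdk1 bound to cyclin B is switched on by Cdc25 phosphatases, with Plk1 and the Aurora kinases driving spindle and centrosome changes. Kinetochores tie chromosomes to the spindle, and the spindle assembly checkpoint holds the anaphase activator Cdc20 in check until every chromosome is attached. Cdc20 and the ubiquitin-conjugating enzyme Ube2c then let the anaphase-promoting complex destroy securin and cyclin B. In proliferating blood progenitors most of these genes are transcribed in a burst in late S phase and G2, under the MuvB complexes with B-Myb and FoxM1, and their promoters are known for a CCAAT box and a CHR element (cell cycle genes homology region).

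Those promoter elements are shown first. The choice by name used no promoter sequence, but it took genes of a class known for these elements. Their excess over all windows is therefore no independent finding. RefSeq promoter windows on GRCm38.p6, from 250 bases before to 50 bases after the start, were held for 37 of the 45 genes and numbered 40. Both strands were searched for the CHR core as TTTGAA or TTCGAA and for CCAAT, which do not overlap. A CHR core stood in 32 of the 40 windows (80%), against 19.2% of all 32851 promoter windows. CCAAT stood in 31 (77.5%), against 37.4%, and 2 or more CCAAT in 21 (52.5%), against 11.7%. Both motifs stood in 29 windows (72.5%), against 7.52%. In those 29 windows a CCAAT lay before a CHR core. The median distance was 32 bases between the first bases of the closest such pair in each window. Bub3, Ect2 and Prc1 entered with overlapping windows that share sites. A match is a description of letters, not a measured binding site. The 120 bases before the start are printed 5′ to 3′ for 8 members on which the results below turn, with CHR cores and CCAAT boxes, in either orientation, in capitals. The first group holds a whole CHR core within the printed bases, in Cdc20 (chr4:118437344-118437463, minus strand), Ube2c (chr2:164769809-164769928, plus strand) and Cdk1 (chr10:69352913-69353032, minus strand).
Cdc20: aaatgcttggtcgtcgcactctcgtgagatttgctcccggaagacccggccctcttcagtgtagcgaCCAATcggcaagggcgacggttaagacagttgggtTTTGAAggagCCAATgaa
Ube2c: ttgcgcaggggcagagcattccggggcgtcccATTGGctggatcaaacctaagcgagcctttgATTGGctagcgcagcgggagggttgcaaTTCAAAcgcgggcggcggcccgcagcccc
Cdk1: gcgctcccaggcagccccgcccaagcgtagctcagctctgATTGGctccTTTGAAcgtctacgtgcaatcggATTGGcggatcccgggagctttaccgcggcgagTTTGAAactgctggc

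The second group holds CCAAT boxes but no whole CHR core in these bases. It is made of Ccnb1 (chr13:100786487-100786606, minus strand), Ccnb2 (chr9:70421555-70421674, minus strand), Plk1 (chr7:122159315-122159434, plus strand), Ncapd2 (chr6:125191587-125191706, minus strand) and Spc25 (chr2:69206214-69206333, minus strand). In Ccnb2, Plk1 and Spc25 a CHR core lay after the start, 4, 30 and 24 bases on. Ccnb2 also held 1 further upstream than the printed bases. In Ncapd2 a CHR core began upstream of the printed bases and ended in their first letters, so it is not in capitals. Ccnb1 held none in the 300 bases.
Ccnb1: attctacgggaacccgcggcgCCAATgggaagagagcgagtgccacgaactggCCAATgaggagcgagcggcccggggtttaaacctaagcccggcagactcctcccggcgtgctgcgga
Ccnb2: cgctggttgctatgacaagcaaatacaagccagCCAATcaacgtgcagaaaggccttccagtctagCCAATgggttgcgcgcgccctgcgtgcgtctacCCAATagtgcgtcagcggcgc
Plk1: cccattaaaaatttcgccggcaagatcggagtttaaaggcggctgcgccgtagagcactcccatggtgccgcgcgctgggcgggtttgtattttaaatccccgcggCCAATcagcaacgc
Ncapd2: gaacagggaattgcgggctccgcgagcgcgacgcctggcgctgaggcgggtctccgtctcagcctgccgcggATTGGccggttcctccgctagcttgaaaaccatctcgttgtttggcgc
Spc25: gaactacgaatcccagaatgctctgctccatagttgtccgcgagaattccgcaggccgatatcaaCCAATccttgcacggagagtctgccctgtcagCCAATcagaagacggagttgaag

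Birc5, Mad2l1, Ncaph, Nuf2, Nusap1 and Pttg1 held neither motif in this window, which says only that these letters are not in it.

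The values are RPKM, reads scaled to transcript length and library depth, as deposited, so levels can be compared between genes. Positions are those of the deposited loci, which can span a neighbouring gene. Estimated from the steps of low values, depth ran from 9.5 M reads in control 2 to 24.8 M reads in the overexpression control. At that depth the least covered member, the checkpoint kinase gene Ttk, rested on an estimated 143 reads in its shallowest library, a counting error of about 8.36%, which is smaller than the spread between the controls given below. Cd82, the targeted gene, had 43.9 RPKM in control 1 and 13.8 RPKM in control 2, 7.65 and 6.91 RPKM in the knockdown, 11.9 RPKM in the overexpression control and 15.2 RPKM in the KAI1 overexpression. In the KAI1 overexpression Cd82 was thus 1.29-fold its control, from 1 library each, and lay within the range of the knockdown controls. The summed level of 12 mast cell and basophil markers was 43551 RPKM in control 1, 8102 RPKM in control 2, 5168 and 4493 RPKM in the knockdown, 4022 RPKM in the overexpression control and 20043 RPKM in the KAI1 overexpression. That of 8 erythroid markers was 164, 2777, 2310, 2653, 2177 and 681 RPKM in the same order. Among defining markers of the labelled basophil type, Mcpt8 stood at 116 RPKM or more in every library. Fcer1a was listed at 0 in control 2 and knockdown 1, at 24.2 RPKM in control 1 and at 7.41 RPKM in the KAI1 overexpression. Stem cell and neutrophil markers went both ways between control 1 and control 2. Cd34 (0.859 and 64.7 RPKM) and Mpo (7.84 and 538 RPKM) were lower in control 1. Ly6a (748 and 217 RPKM) and Ctsg (1080 and 643 RPKM) were higher there. The 6 stromal markers summed to 3.05 RPKM or less and the 5 lymphoid markers to 0.837 RPKM or less. Control 1 and the KAI1 overexpression thus stood apart by a high mast cell sum and a low erythroid sum. Not every marker followed its sum. The erythroid markers Gata1 (87.3 RPKM) and Epor (15.6 RPKM) were highest in control 1. Mcpt8 was lower in control 1 (160 RPKM) than in control 2 (389 RPKM). In control 1 these sums go with low levels of the mitotic genes described next. In the KAI1 overexpression the mitotic genes differed little from their control, and that library was the lowest of the 6 in 12 of the 45. The part of the markers in the results was not tested.

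All 45 genes were expressed in every library. Mean levels over the 6 libraries ran from 4.002 RPKM in Ttk to 212 RPKM in Ube2c. After Ube2c the order was the passenger complex gene Cdca8 (139 RPKM), the checkpoint gene Bub3 (136 RPKM), survivin, Birc5 (131 RPKM), and Cdca3 (111 RPKM). The ranges over libraries of neighbours in that order overlapped. At the low end stood Anln (4.97 RPKM), Cenpf (4.61 RPKM) and Ttk. The median member lay at percentile 79.6 of the entries averaging 1 RPKM or more.

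The 45 genes differed more between the 2 control libraries than between the groups of the knockdown arm. Control 1 was the lowest of the 6 libraries in 25 members (55.6%), against 28.6% of all 10112 entries, and control 2 was the highest in 23 (51.1%), against 19.8%. The KAI1 overexpression was the lowest in 12 (26.7%), against 17.1%, and its control in 5 (11.1%), against 17.8%. Relative to each gene's mean over the 6 libraries on the log2(RPKM + 1) scale, the median member stood at -0.35 in control 1, 0.24 in control 2, 0.13 in knockdown 1, 0.27 in knockdown 2, -0.077 in the control of the overexpression arm and -0.15 with KAI1 overexpressed. The same median over all entries lay between -0.037 and 0.043. In these bulk samples, fewer cells in G2 and mitosis and less of these RNAs per cell cannot be told apart. Within members the spread was modest: the highest library exceeded the lowest at least 2-fold (RPKM + 1) in 10 of 45, where 39.4% of all entries did.

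**Figure D1:**
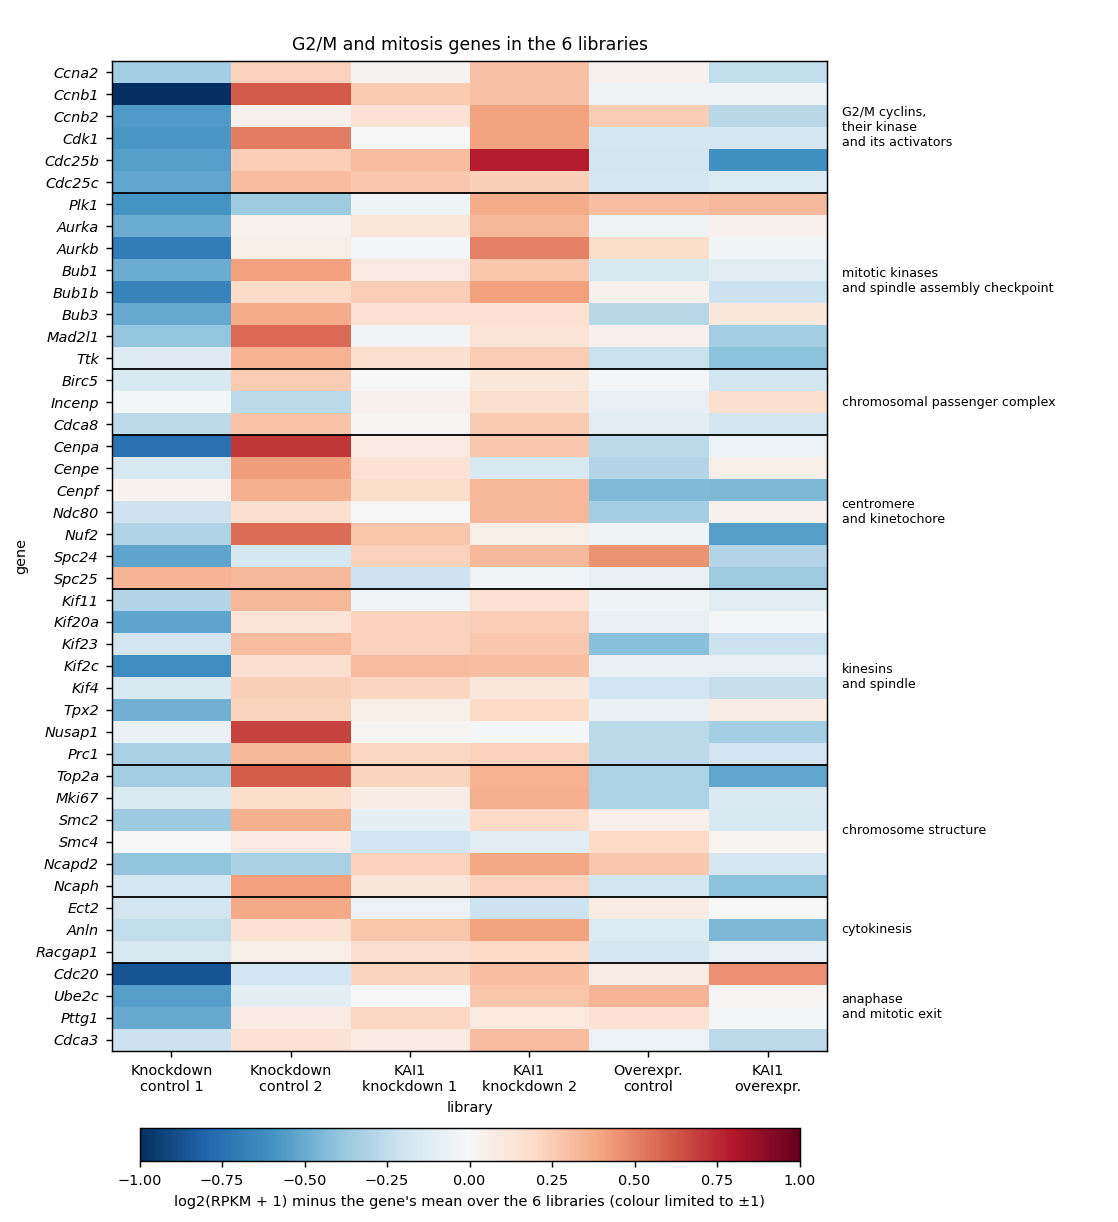
Each row is a gene, grouped by role, and each column a library; colour gives log2(RPKM + 1) minus the gene's mean over the 6 libraries. Control 1 is mostly blue (median -0.35), control 2 and knockdown 2 mostly red (medians 0.24 and 0.27).

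Control 2 lay above control 1 in 43 of the 45 genes, against 49.2% of all entries, by a median of 0.59 on the log2 scale. Regardless of sign, the median gap was 0.59 in the members and 0.50 over all entries, so the shared direction set the members apart more than the size. The gap reached 1.72 in Ccnb1, 1.46 in the centromeric histone gene Cenpa and 1.10 in Cdk1. Only Incenp (-0.26) and Spc25 (-0.018) were lower in control 2. Knockdown 2 lay above knockdown 1 in 36 of the 45 and below in 9, against 54.8% of all entries above. That gap had a median of 0.13 and ran from -0.30 in Cenpe to 0.52 in Aurkb.

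In the KAI1 knockdown no member passed the test. Fitted with limma on log2(RPKM + 1) over 10113 entries, 0 of the 45 were called after Benjamini-Hochberg adjustment, with adjusted p from 0.83 to 0.998. Limma called 0.0297% of all entries, 0.00989% higher and 0.0198% lower. At an unadjusted p below 0.05 there was 1 member, Ncapd2, against 3.32% of all entries. In 15 of the 45 both knockdown libraries lay above both controls, against 21.5% of all entries, and in 2, Spc25 and Smc4, below both, against 17%. The other 28 overlapped, as did 6221 of the 10113 entries. The median difference over the members was 0.22, against 0.028 over all entries tested, and 38 of 45 were above 0, where 53% of all entries were.

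That direction rested on control 1. Against control 2 alone the median member difference was -0.077, with 15 members in which both knockdown libraries were higher and 25 in which both were lower; 42% and 36% of all entries did so. Against control 1 alone the median was 0.54, with 41 higher and 2 lower, where 44.2% and 41.3% of all entries did so. Both knockdown libraries lay between the controls in 21 of the 45 genes, against 30.0% of all entries. In fits that left out 1 library limma called Ccnb1 (adjusted p = 0.0315) and Cdc20 (adjusted p = 0.0417) without control 2, where it called 10.3% of all entries, and 0 members without any of the other 3. Such a fit takes the spread from the knockdown pair alone and assumes that the lone control varies like it.

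**Figure D2:**
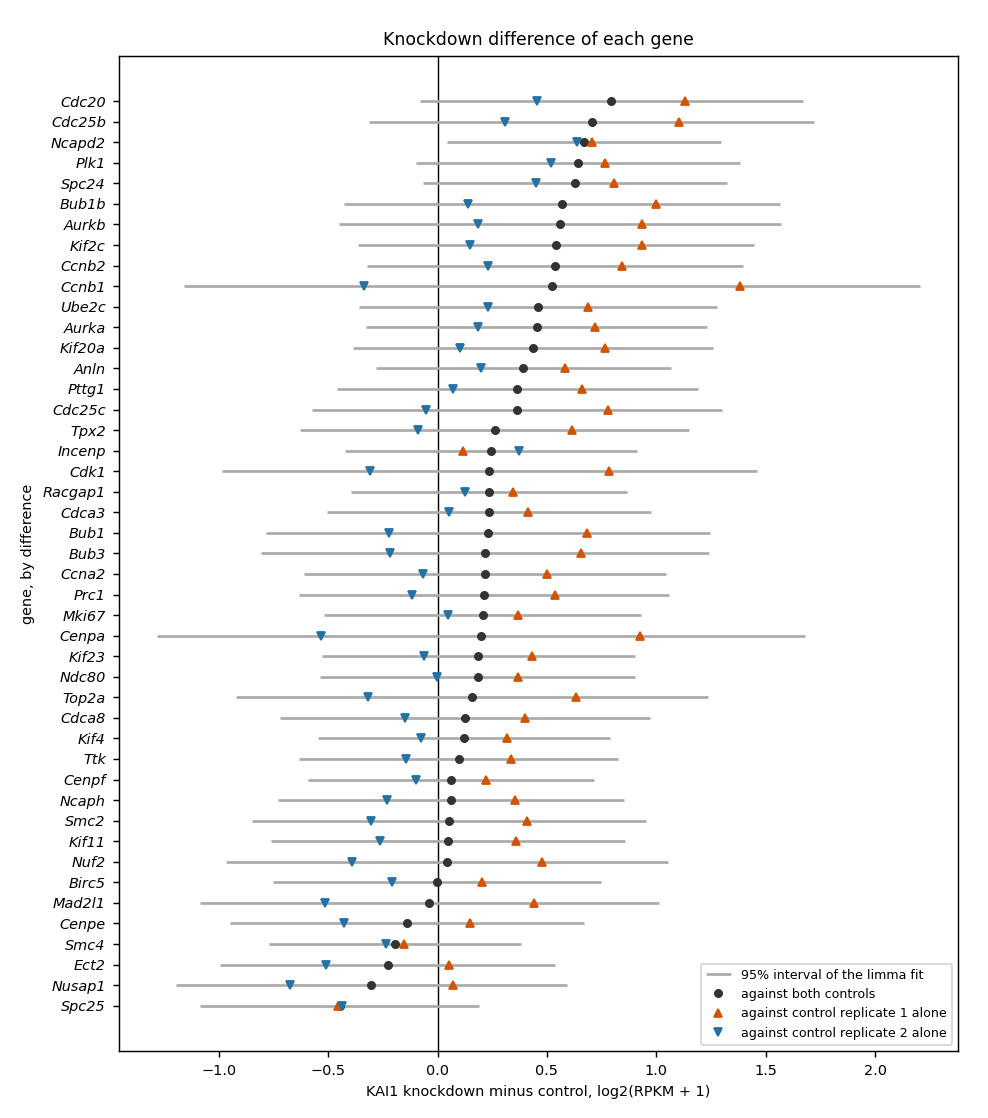
Dots give the knockdown minus control difference of each gene on the log2(RPKM + 1) scale, grey bars its 95% interval, and triangles the difference against 1 control alone. The interval lies wholly above 0 only in Ncapd2 (0.043 to 1.30, unadjusted), and many genes have their 2 triangles on opposite sides of 0.

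Among the cyclins and their kinase, Ccnb1 had the widest control gap of all 45 genes, and Ccna2 and Ccnb2 had gaps near the median member's. Ccnb1, the mitotic cyclin B1 (chromosome 13, 101548694 to 101556441 on mm9), had 30.4 RPKM in control 1 and 102.5 RPKM in control 2, 80.0 and 82.0 RPKM in the knockdown, and 65.0 RPKM in both libraries of the overexpression arm. Its knockdown libraries lay between the controls, and control 1 was the lowest of all 6. The means were 66.5 ± 51.0 (SD, n = 2) and 81.0 ± 1.45 RPKM (SD, n = 2), a log2 difference of 0.52 (SE 0.63, limma adjusted p = 0.86). Cdk1, the kinase it activates, repeated that order, at 36.7 and 79.6 RPKM against 55.6 and 73.6 RPKM, with 49.3 and 48.8 RPKM in the overexpression control and the KAI1 overexpression. Ccna2, cyclin A2, overlapped too, at 31.9 and 47.8 against 41.5 and 50.1 RPKM, and its deposited locus is shared with Exosc9. Exosc9 had 19.9 RPKM in control 1, 49.1 RPKM in control 2, and 36.0 and 34.1 RPKM in the knockdown. Like Ccna2 it was thus higher in control 2 than in control 1.

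Ccnb2, cyclin B2, and Cdc25b, a phosphatase that activates Cdk1, were among the 15 genes with both knockdown libraries on top. Ccnb2 had 42.3 RPKM in control 1 and 65.1 RPKM in control 2, 70.1 and 83.8 RPKM in the knockdown, 75.6 RPKM in the overexpression control and 52.0 RPKM in the KAI1 overexpression. Cdc25b stood at 11.3 and 20.4 RPKM, 21.4 and 30.1 RPKM, 14.9 RPKM and 10.8 RPKM in the same order. In both genes the KAI1 overexpression lay below its control and the groups of the knockdown arm did not overlap. In Cdc25b the lower knockdown library exceeded control 2 by little. The differences in the knockdown were 0.54 (SE 0.32) in Ccnb2 and 0.70 (SE 0.38) in Cdc25b, neither past the test (limma adjusted p = 0.83 in each). Cdc25c, the other Cdc25 phosphatase measured, stood at 5.98 and 11.4 against 11.1 and 10.8 RPKM and overlapped.

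Of the mitotic kinases, Plk1 separated the knockdown groups most clearly. Plk1 (chromosome 7, 129302951 to 129313389 on mm9) had 30.3 RPKM in control 1 and 36.1 RPKM in control 2, 45.1 and 60.5 RPKM in the knockdown, 57.5 RPKM in the overexpression control and 58.4 RPKM in the KAI1 overexpression. Both libraries of the overexpression arm lay at the knockdown level, above both knockdown controls. The knockdown difference was 0.64 (SE 0.28, unadjusted p = 0.0746, limma adjusted p = 0.83), and it was 0.52 against control 2 alone. Aurka, the spindle-pole Aurora kinase, had 16.7 RPKM in control 1 and 24.6 RPKM in control 2 and 25.95 and 30.4 RPKM in the knockdown, with 23.3 and 24.7 RPKM in the overexpression control and KAI1 overexpression. Its groups did not overlap, though knockdown 1 exceeded control 2 by little. Aurkb, the Aurora kinase of the passenger complex, overlapped, since knockdown 1 (22.7 RPKM) lay below control 2 (24.0 RPKM).

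Most checkpoint genes overlapped between the groups, as did 6221 of all 10113 entries tested. Bub3, a scaffold of the checkpoint, had 94.1 RPKM in control 1 and 173 RPKM in control 2, 149 and 148 RPKM in the knockdown, 110.3 RPKM in the overexpression control and 144 RPKM in the KAI1 overexpression. Mad2l1, which encodes the Cdc20 inhibitor Mad2, stood at 14.4 and 28.9 RPKM, 18.8 and 21.1 RPKM, 19.9 RPKM and 14.8 RPKM in that order. In both genes the knockdown libraries lay between the controls. Bub1b, the BubR1 pseudokinase of the checkpoint, stood at 30.4 and 55.9 against 58.3 and 65.3 RPKM and did not overlap (log2 difference 0.57, SE 0.37, limma adjusted p = 0.83). Bub1 and Ttk, kinases at the top of the checkpoint, overlapped, with differences of 0.23 and 0.096.

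**Figure D3:**
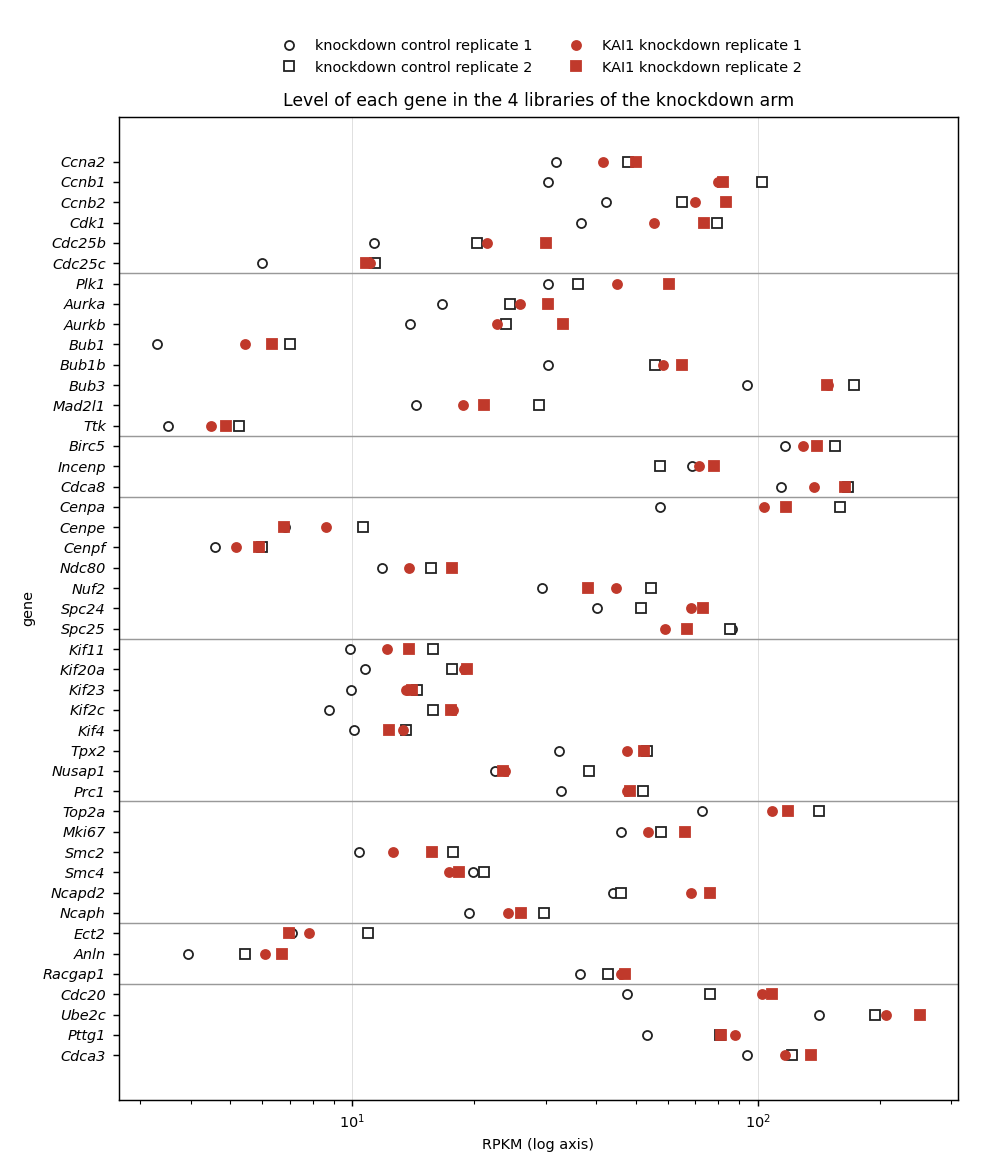
Points give the RPKM of each gene in the 4 libraries of the knockdown arm on a log axis, with controls open and knockdown filled; lines separate the roles. In Ccnb1, Cdk1 and Cenpa the open points enclose the filled ones, whereas in Ncapd2, Spc24, Plk1 and Cdc20 the filled points lie to the right of both open ones.

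The passenger complex corrects faulty attachments and later guides cytokinesis. Its kinase gene Aurkb, described above, ranged 2.39-fold over the 6 libraries, and its other 3 members ranged 1.36-fold to 1.46-fold. Cdca8, borealin, had 114 RPKM in control 1 and 167 RPKM in control 2, 138 and 165 RPKM in the knockdown, and 127 and 121 RPKM in the overexpression control and KAI1 overexpression. Birc5, survivin, had a difference of -0.0026 (SE 0.28, 95% interval -0.75 to 0.75), which leaves room for a change in either direction. Incenp, the scaffold of the complex, was 1 of the 15 genes above both controls, at 69.0 and 57.5 against 71.6 and 78.2 RPKM, and it was 1 of the 2 members in which control 1 exceeded control 2.

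Kinetochore genes differed in sign. The Ndc80 complex couples the kinetochore to microtubules, and its subunits Spc24 and Spc25 bind each other as a dimer. Spc24 (chromosome 9, 21559886 to 21564730 on mm9) had 40.1 RPKM in control 1 and 51.6 RPKM in control 2, 68.6 and 73.3 RPKM in the knockdown, 80.0 RPKM in the overexpression control and 47.5 RPKM in the KAI1 overexpression. Spc25 (chromosome 2, 69031952 to 69044247 on mm9) had 86.6 and 85.5 RPKM, 59.0 and 66.8 RPKM, 64.4 RPKM and 52.9 RPKM in that order. So Spc24 was higher and Spc25 lower in both knockdown libraries than in both controls, and neither pair of groups overlapped. The log2 differences were 0.63 (SE 0.26, unadjusted p = 0.066) and -0.45 (SE 0.24, unadjusted p = 0.126), with a limma adjusted p of 0.83 in each. Both kept their direction against either control alone.

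The other arm of the complex is the Ndc80 and Nuf2 dimer. Ndc80 had 11.9 RPKM in control 1 and 15.7 RPKM in control 2, 13.8 and 17.7 RPKM in the knockdown, 10.7 RPKM in the overexpression control and 14.2 RPKM in the KAI1 overexpression. Nuf2 stood at 29.4 and 54.6 RPKM, 44.6 and 38.2 RPKM, 35.7 RPKM and 24.7 RPKM in that order. Both overlapped in the knockdown arm, and in the overexpression arm Ndc80 was higher and Nuf2 lower than in the control. Cenpa, the histone variant that marks the centromere, had 57.5 RPKM in control 1 and 160.1 RPKM in control 2, 104 and 117 RPKM in the knockdown, and 80.5 and 93.4 RPKM in the overexpression control and KAI1 overexpression. Its knockdown libraries lay between the controls, whose means and spread were 109 ± 72.5 RPKM (SD, n = 2). Cenpe, a kinetochore kinesin, stood at 6.82 and 10.6 RPKM, 8.61 and 6.78 RPKM, 6.10 RPKM and 8.05 RPKM in that order, and the kinetochore gene Cenpf between 3.01 and 5.99 RPKM.

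Of the 8 kinesin and spindle genes, Kif2c and Kif20a had both knockdown libraries above both controls, where 21.5% of all entries did. The other 6 overlapped, as did 6221 of all 10113 entries tested. Kif2c, a kinesin that takes microtubules apart at centromeres, had 8.76 RPKM in control 1 and 15.8 RPKM in control 2, 17.7 and 17.6 RPKM in the knockdown, and 13.3 and 13.2 RPKM in the overexpression control and KAI1 overexpression. Control 1 was the low library and the other 5 lay within 13.2 to 17.7 RPKM. The difference was 0.54 (SE 0.34, limma adjusted p = 0.83) and shrank to 0.15 against control 2 alone. Tpx2, the microtubule nucleator that activates Aurora A, was the most abundant of this role, at 32.3 and 53.3 against 47.5 and 52.6 RPKM, with 43.1 and 47.9 RPKM in the overexpression control and KAI1 overexpression. Kif11, Kif23, Kif4 and Prc1, which act in spindle bipolarity and the central spindle, had differences from 0.047 to 0.21. Nusap1, a spindle microtubule protein, had -0.30, with control 2 (38.4 RPKM) far above the other 5 libraries (18.5 to 23.9 RPKM). The deposited loci of Kif20a and Nusap1 are shared with Brd8 and Cdc23 and with Oip5. Brd8 (18.8 RPKM in control 1 and 25.8 RPKM in control 2) and Cdc23 (10.8 and 14.9 RPKM) were higher in control 2, as Kif20a was (10.8 and 17.6 RPKM). Oip5 hardly differed between the controls, at 11.8 and 12.1 RPKM.

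Among the chromosome-structure genes, Ncapd2 had the smallest p of all 45. Ncapd2 (chromosome 6, 125118025 to 125141604 on mm9), a regulatory subunit of condensin I, had 43.9 RPKM in control 1 and 46.1 RPKM in control 2, 68.4 and 76.3 RPKM in the knockdown, 70.2 RPKM in the overexpression control and 51.7 RPKM in the KAI1 overexpression. The controls lay close together here, and every knockdown library exceeded both. The means were 45.04 ± 1.55 (SD, n = 2) and 72.3 ± 5.58 RPKM (SD, n = 2), a log2 difference of 0.67 (SE 0.23, unadjusted p = 0.0409, limma adjusted p = 0.83). It was 0.70 against control 1 alone and 0.64 against control 2 alone.

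The other condensin members and topoisomerase had smaller differences. Smc4, a core ATPase of condensin, had both knockdown libraries below both controls, at 19.9 and 21.1 against 17.3 and 18.3 RPKM (log2 difference -0.19, SE 0.21, limma adjusted p = 0.85). Smc2 and Ncaph overlapped, with differences of 0.052 and 0.060. Top2a, the topoisomerase that untangles sister chromatids, had 73.0 RPKM in control 1 and 142 RPKM in control 2, 109 and 119 RPKM in the knockdown, 74.6 RPKM in the overexpression control and 64.8 RPKM in the KAI1 overexpression. Mki67, the proliferation marker Ki-67, ranged from 40.7 to 66.1 RPKM over the 6 libraries and overlapped as well.

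In cytokinesis, Racgap1, part of the centralspindlin complex, was the steadiest of all 45 genes, with the smallest ratio of highest to lowest library, 1.30. It had 36.5 RPKM in control 1 and 42.6 RPKM in control 2, 46.2 and 47.1 RPKM in the knockdown, and 36.4 and 38.6 RPKM in the overexpression control and KAI1 overexpression. Anln, the anillin of the contractile ring, stood at 3.94 and 5.45 RPKM, 6.09 and 6.72 RPKM, 4.32 RPKM and 3.29 RPKM in that order. Both had knockdown libraries above both controls, by 0.24 (SE 0.23) and 0.39 (SE 0.25), with limma adjusted p of 0.842 and 0.83. Ect2, the exchange factor that activates RhoA, had a difference of -0.23 and overlapped.

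Genes of anaphase and mitotic exit had the largest single difference. Cdc20 (chromosome 4, 118100698 to 118109948 on mm9), the coactivator of the anaphase-promoting complex, had 47.6 RPKM in control 1 and 76.5 RPKM in control 2, 103 and 108 RPKM in the knockdown, 92.4 RPKM in the overexpression control and 120.3 RPKM in the KAI1 overexpression. It was the only one of the 45 whose highest library was the KAI1 overexpression, and its lowest was control 1. The means were 62.0 ± 20.5 (SD, n = 2) and 105 ± 4.07 RPKM (SD, n = 2), a log2 difference of 0.79 (SE 0.33, unadjusted p = 0.0663, limma adjusted p = 0.83) that was 0.46 against control 2 alone. Its deposited locus is shared with Elovl1. Elovl1 had 171 RPKM in control 1 and 62.7 RPKM in control 2 and 79.5 and 87.5 RPKM in the knockdown. Between the controls Elovl1 and Cdc20 thus differed in opposite directions. Against control 2 alone both knockdown libraries were higher in either gene. In the overexpression arm Elovl1, like Cdc20, was higher with KAI1 overexpressed (129 RPKM) than in the control (76.9 RPKM). What the shared locus adds to the Cdc20 values was not tested.

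Ube2c, the most abundant member, had 142 RPKM in control 1 and 195 RPKM in control 2, 208 and 252 RPKM in the knockdown, 263 RPKM in the overexpression control and 209.6 RPKM in the KAI1 overexpression. Pttg1, securin, stood at 53.3 and 80.8 against 88.2 and 81.4 RPKM. In both the knockdown libraries exceeded both controls, though in Pttg1 knockdown 2 did so by under 1 RPKM over control 2. Cdca3, an adaptor for the degradation of the mitotic inhibitor Wee1, overlapped at 94.2 and 121 against 117 and 136 RPKM.

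In the overexpression arm the same 45 genes differed little, with 1 library on each side and no test. No member reached 2-fold on the RPKM + 1 scale, against 10.1% of all 9936 entries compared (4.92% higher and 5.21% lower). At 1.5-fold 0 members were higher, against 10.9%, and 1, Spc24, was lower, against 11.4%. At 1.2-fold, 4 were higher (Ndc80, Bub3, Cdc20 and Cenpe) and 10 lower, against 26.2% and 26.1% of all entries. The median log2 ratio over the members was -0.076, with 29 of 45 below 0, where 49.4% of all entries were.

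The lower genes were led by Spc24, from 80.0 to 47.5 RPKM, a log2 ratio of -0.74. Ccnb2 (-0.53), Nuf2 (-0.51), Ncapd2 (-0.43), Cdc25b (-0.43) and Mad2l1 (-0.40) came next. The higher genes were Ndc80 and Bub3 at 0.38 each, Cdc20 at 0.38 and Cenpe at 0.35. Ccnb1 and Cdk1, at 0.00 and -0.013, hardly differed between these 2 libraries, as did Plk1 at 0.022.

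**Figure D4:**
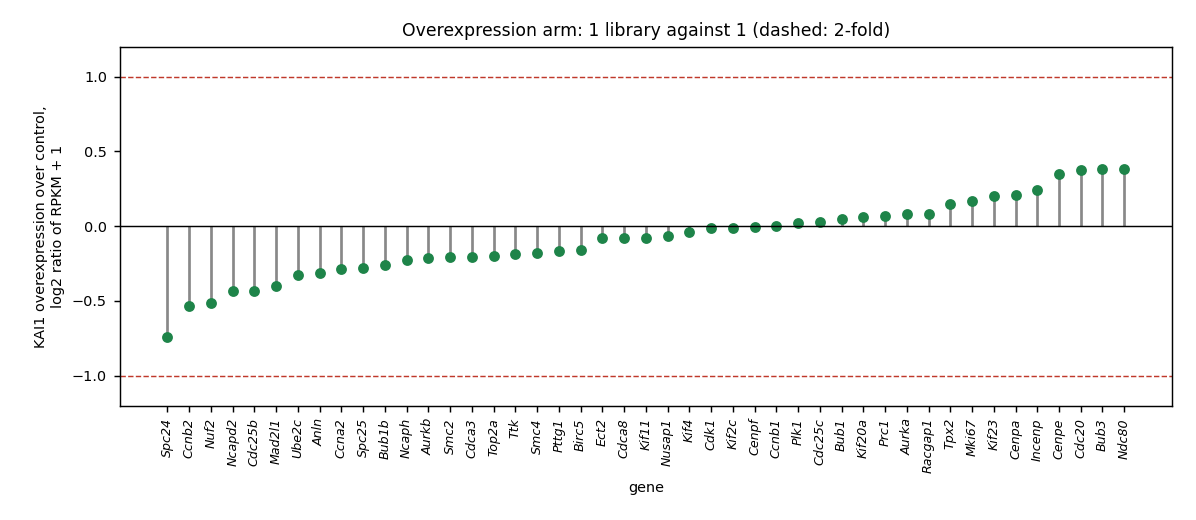
Points give the log2 ratio of RPKM + 1 between the KAI1 overexpression library and its control for each gene, sorted; dashed lines mark 2-fold. All 45 genes lie inside the dashed lines, from -0.74 in Spc24 to 0.38 in Ndc80.

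The knockdown and overexpression comparisons share no library. Of the 45 genes, 23 (51.1%) had a positive knockdown difference with a negative overexpression ratio, against 33.6% of all 9736 entries in both comparisons, and 15 (33.3%) were positive in both, against 20.2%. Both counts rested on control 1. Against control 2 alone they were 11 (24.4%) and 7 (15.6%), against 29.6% and 24% of all entries, so the members then lay below the background in both. Spc24, Ncapd2, Ccnb2 and Cdc25b were of the first kind against either control. Cdc20 and Plk1 were of the second against either control, whereas Bub3 was of the second only with control 1 included.

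Since RPKM is relative to transcript length, subunits of 1 complex can be set side by side as ratios within a library. All 6 pairs within each of 5 complexes were formed, 30 in all: the Ndc80 complex, condensin I, the passenger complex, the mitotic checkpoint complex, and Cdk1 with its cyclins. In 16 pairs (53.3%) the knockdown and control ratios did not overlap, against 51.3% of all 990 pairs among the 45 genes, so the complexes were near the background. The number per complex was 6 of 6 in the checkpoint complex, 4 of 6 in the Ndc80 complex, 3 of 6 in condensin I, 2 of 6 in the passenger complex and 1 of 6 for Cdk1 and its cyclins.

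The pairs named next were picked after their values were seen. Spc24 to Spc25 stood at 0.463 and 0.604 in the controls, 1.16 and 1.10 in the knockdown, 1.24 in the control of the overexpression arm and 0.897 with KAI1 overexpressed. Ncapd2 to Smc4 stood at 2.21 and 2.18, 3.96 and 4.16, 3.05 and 2.56 in that order. Ncapd2 to Smc4 was close in the 2 controls, as were the levels of both its genes, whereas Spc24 to Spc25 differed between the controls about as much as Spc24 itself. In both ratios the knockdown libraries lay above both knockdown controls, and Spc24 to Spc25 was highest in the overexpression control. Cdc20 to Mad2l1, the anaphase activator to its inhibitor, stood at 3.30 and 2.65, 5.46 and 5.14, 4.64 and 8.11. Cdca8 to Birc5 ranged only from 0.979 to 1.18 over the 6 libraries. With 2 libraries against 2 an exact permutation test of a single ratio cannot go below p = 0.333, so no ratio was tested.

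**Figure D5:**
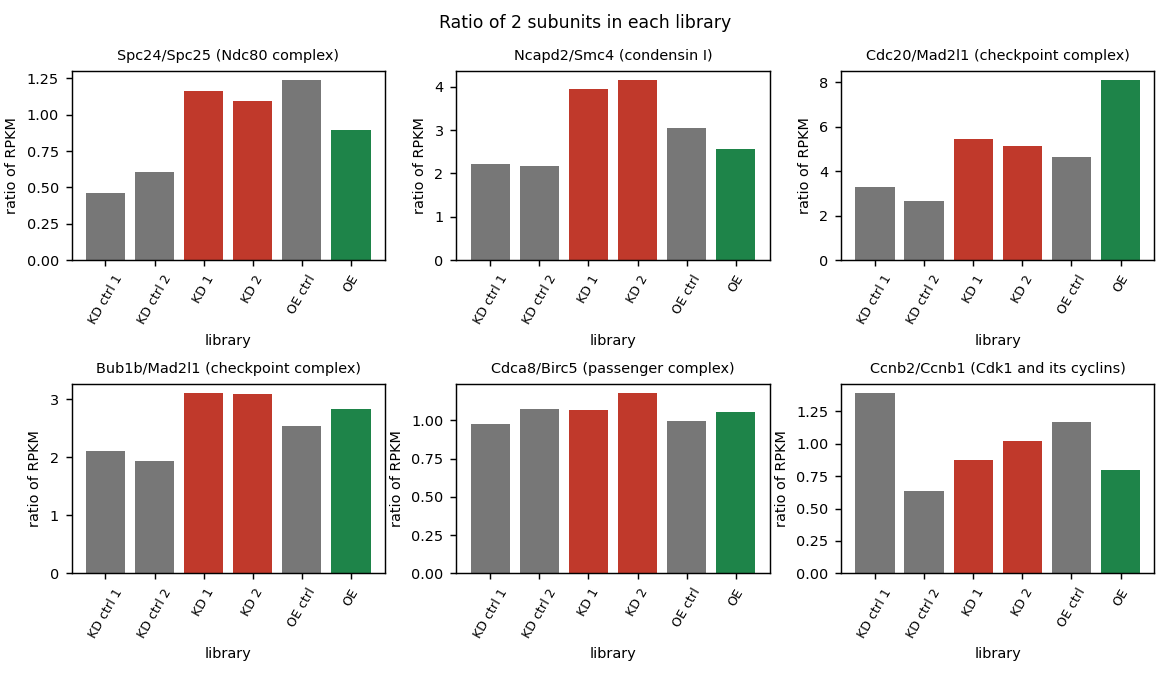
Bars give the ratio of the RPKM of 2 subunits in each of the 6 libraries (KD ctrl, knockdown control; KD, KAI1 knockdown; OE ctrl, overexpression control; OE, KAI1 overexpression), from 0. Spc24/Spc25 is 1.10 or more in both knockdown bars, at most 0.604 in the knockdown controls and highest, at 1.24, in the overexpression control. Cdca8/Birc5 stays between 0.979 and 1.18.

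Other cell cycle genes, listed by role and not by how they moved, gave 0 calls by limma in each of 7 lists. At an unadjusted limma p below 0.05 there was 1 gene in each of 4 lists and 0 in the other 3. These were Mybl2 (of 21 tested), Esco1 (of 16), Gadd45b (of 10) and Pmf1 (of 28). Over all entries 3.32% were below 0.05. In the list of regulators of G2/M transcription 7 of 21 tested genes lay above both controls and 1 below, with a median difference of 0.12. Mybl2, which encodes B-Myb, the factor that joins MuvB at mitotic promoters, had 14.7 RPKM in control 1 and 17.3 RPKM in control 2, 26.1 and 30.2 RPKM in the knockdown, 28.1 RPKM in the overexpression control and 21.99 RPKM in the KAI1 overexpression (log2 difference 0.78, SE 0.24, unadjusted p = 0.0263, limma adjusted p = 0.83). E2f4, the E2F of the repressive MuvB complex, stood at 27.1 and 32.6 RPKM, 47.8 and 44.5 RPKM, 55.2 RPKM and 60.1 RPKM. Foxm1, at 14.2 and 13.4 against 12.1 and 18.97 RPKM, overlapped.

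For the anaphase-promoting complex with its coactivator Cdh1, 4 of 16 lay above and 0 below, among them the chain-elongating enzyme gene Ube2s at 115 and 127 against 164 and 188 RPKM and Fzr1, which encodes Cdh1, at 70.0 and 58.4 against 82.0 and 96.9 RPKM. For cohesin, separase and shugoshins 3 of 16 lay above and 5 below, with the acetyltransferase gene Esco1 lower (4.37 and 4.35 against 2.48 and 1.995 RPKM) and separase, Espl1, higher (4.64 and 4.45 against 6.45 and 6.89 RPKM). Of the other 4 condensin subunits 1 lay above, Ncaph2, at 105 and 94.5 against 122 and 159 RPKM, and Ncapg overlapped. Neither these nor the genes above passed the test, with adjusted p of 0.83 or more.

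Among 10 tested inhibitors of mitotic entry and G2 checkpoint genes 3 lay above and 1 below. The stress gene Gadd45b had 3.29 RPKM in control 1 and 5.10 RPKM in control 2, 9.37 and 12.6 RPKM in the knockdown, 12.2 RPKM in the overexpression control and 1.73 RPKM in the KAI1 overexpression (log2 difference 1.22, SE 0.30, unadjusted p = 0.013, limma adjusted p = 0.83). Pkmyt1, a kinase that inhibits Cdk1, stood at 5.71 and 2.70 against 6.72 and 8.62 RPKM. Among 28 other kinetochore and checkpoint genes 7 lay above and 1 below, including Pmf1 at 131 and 131 against 207 and 209.9 RPKM and Nsl1 at 8.23 and 10.7 against 14.5 and 14.4 RPKM, both subunits of the Mis12 complex. Among 24 other mitotic kinesin and spindle genes 7 lay above and 2 below, with Hmmr lower (24.6 and 24.0 against 13.5 and 18.1 RPKM) and the Plk1 activator gene Bora higher (4.14 and 12.2 against 13.02 and 16.6 RPKM). Read against 21.5% and 17% of all entries, 6 of the 7 lists had more genes above both controls and fewer below. Several of those higher shares lay near 21.5%. The cohesin list had fewer above and more below. Against control 2 alone the median difference was 0.15 for the regulators, 0.14 for the inhibitors and 0.052 for the spindle list. That median was -0.0017 for the anaphase-promoting complex, -0.013 for the condensin subunits, -0.045 for the kinetochore list and -0.15 for the cohesin list. Over all entries it was 0.031.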

How the data were processed

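The 6 RNA libraries came from EML cells. Per the file headers, the authors deposited RPKM for each RefSeq entry. Tools named by the submitters' processing notes are Cufflinks, Bowtie and TopHat2 2.0.9, and the build is mm9. Strandedness, counting rules and depth are not given in the sources used here. Of 23170 rows, 24 repeated an accession and locus, and 23146 were used. Symbols came from RefSeq (22840 entries) and GENCODE (125). Coordinates are mm9 as deposited, 1-based: the deposited start was raised by 1 because the span then matched a RefSeq gene length in 8124 entries, against 523 for the unshifted start. Promoter windows are RefSeq's, on GRCm38.p6.

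The knockdown was fitted with limma 3.58.1 in R 4.3.3, with a mean-variance trend, on log2(RPKM + 1) of the 10113 entries averaging 1 RPKM or more over 4 libraries, two-sided, with Benjamini-Hochberg adjustment at 0.05. All 45 members passed that filter. Such differences understate the change of low genes. The overexpression arm (1 library against 1) used ratios of RPKM + 1 over 9936 entries. Relative depth was taken from low values that equal whole reads, and absolute depth from 244 entries with transcript lengths of GENCODE, so reads per gene are approximate. Scripts were tested on simulated data. Values in every library are given for the 10 members of smallest knockdown p, the 10 of largest overexpression ratio and the most abundant of each of 8 roles. Cdk1, which is in none of these sets, is given in every library as well. Of other lists, the pair of smallest p is named. Among these Mybl2, E2f4 and Gadd45b have values in every library, Ncapg has none and the others have the knockdown arm only. Foxm1 and the subunit ratios were added after their values were seen. The members and lists were chosen with earlier results of these data known. No count test was run. Alternatives were the pseudocount, the filter, quantile and median-ratio scaling, a replicate block, no trend, and leaving out each library.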

Additional observations from a re-analysis of the deposited data

How the results depend on the processing

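No member was called under another pseudocount (0.1), filter or scaling, without the trend, or with a replicate block, and the replicate block left the median difference at 0.22; control and knockdown libraries of the same number did not deviate together over all genes (correlation -0.075), and the labels do not say what a number marks, so the samples were not treated as paired. Among the members number 2 was the higher in 43 of 45 in the controls and in 36 of 45 in the knockdown. With the block limma called 4 of all entries, against 3. It called 5 with a pseudocount of 0.1, 16 without control 1, 1045 without control 2 and 0 without knockdown 1 or without knockdown 2, with 88 and 58 at an unadjusted p below 0.05. Without a filter limma called 0 of all entries, with 683 at an unadjusted p below 0.05. Leaving out a library moved the results: calls among members ran from 0 to 2, the median knockdown difference from -0.077 to 0.54, members above both controls from 15 to 41, and members below from 2 to 25. The last was 4 without knockdown 1. Members positive in the knockdown and negative in the overexpression arm ran from 11 to 27, and those positive in both from 7 to 16, lowest without control 1 in each; these 2 counts were varied after seeing the data. At 1.5-fold, 1 member differed in the overexpression arm. Under quantile and median-ratio scaling, chosen after seeing the data for this count, control 1 was the lowest library in 30 and 26 members, and the median overexpression ratio stayed between -0.082 and -0.076.

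With a library left out, 25 members changed sign, none of them called in the full fit. The lowest and highest differences on the log2 scale were -0.068 and 0.50 for Ccna2, -0.34 and 1.38 for Ccnb1, -0.31 and 0.78 for Cdk1, and -0.053 and 0.78 for Cdc25c. They were -0.22 and 0.68 for Bub1, -0.22 and 0.65 for Bub3, -0.52 and 0.44 for Mad2l1, and -0.14 and 0.33 for Ttk. For the passenger complex they were -0.21 and 0.20 for Birc5, and -0.15 and 0.40 for Cdca8. At the kinetochore they were -0.53 and 0.93 for Cenpa, -0.43 and 0.15 for Cenpe, -0.10 and 0.22 for Cenpf, -0.0040 and 0.37 for Ndc80, and -0.39 and 0.48 for Nuf2. For spindle genes they were -0.27 and 0.36 for Kif11, -0.061 and 0.43 for Kif23, -0.077 and 0.32 for Kif4, -0.091 and 0.61 for Tpx2, -0.68 and 0.069 for Nusap1, and -0.12 and 0.54 for Prc1. They were -0.32 and 0.63 for Top2a, -0.31 and 0.41 for Smc2, -0.23 and 0.35 for Ncaph, and -0.51 and 0.053 for Ect2. Birc5, at -0.0026, was 0.031 after quantile normalization. The cause was not tested beyond the libraries named.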
